A study of Mus musculus with 73 samples.

Results

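The *Fgf5* locus contributed 5 candidate enhancer fragments, Fgf5_E036 to Fgf5_E040, to a reporter assay that measured 59 enhancers and 20 control fragments. They were chosen by name: every measured combination of an *Fgf5* fragment with a control (enhancer-control, EC), and every combination in which both fragments came from the *Fgf5* locus (part of the enhancer-enhancer, EE, class). The first set held 2440 combinations and the second 266, together 2706 of the 110180 combinations of the whole table. A further 9239 combinations joined an *Fgf5* fragment to an enhancer of another locus. Each reporter carried 1 promoter, a barcoded transcript and, behind it, a fragment in position 1 and a fragment in position 2, each on either strand. The 8 libraries differed in the promoter, *Sox2*, *Klf2*, *Otx2*, *Fgf5*, *Lefty1*, *Nanog*, *Ap1m1* or *Tbx3*. All were transfected into E14tg2a, a mouse embryonic stem cell line grown in the 2i and LIF medium that holds cells in the naive state, in 3 biological replicates per library collected after 24 hours. No genotype or treatment differed between groups. Reporters were plasmids outside the chromosome, and all cells came from 1 line, so the values describe the fragments away from their own locus.

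*Fgf5* encodes a secreted fibroblast growth factor. In the early mouse embryo it is a classic marker of the post-implantation epiblast: it is very low in naive embryonic stem cells and is switched on as they leave the naive state. Later, FGF5 ends the growth phase of the hair cycle. An enhancer is a DNA element that raises transcription from a promoter, and several elements often lie around 1 gene, which raises the question of what each adds alone and in a pair.

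Each element was listed as a window of 450 bp in mm10, with primers designed near its ends, so that the fragment tested was somewhat shorter than its window. Coordinates are those of the windows. Fgf5_E036 (chr5:98255706-98256155) started 1522 bp past the start of the *Fgf5* gene (chr5:98254184-98277033, plus strand in RefSeq, GRCm38.p6) and lay inside the gene body. Whether it is exonic or intronic was not determined here. Fgf5_E037 (chr5:98293317-98293766) started 16284 bp past the end of the gene. The remaining members were a cluster further downstream, Fgf5_E038 (chr5:98308049-98308498), Fgf5_E039 (chr5:98310488-98310937) and Fgf5_E040 (chr5:98313134-98313583), with gaps of 1989 and 2196 bp between them. No RefSeq gene overlapped the 4 downstream fragments, and the next gene, *Cfap299*, began 15555 bp past the last of them. The fragments are written E036 to E040 from here on.

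The designed primers that amplified each element from genomic DNA are shown 5′ to 3′ because they set the ends of the fragment tested. The fragments between them were not read here.
Fgf5_E036 forward: tttctggaccaccacgttaatcactc
Fgf5_E036 reverse: ctgtgcttgaatttccaaaccctcc
Fgf5_E037 forward: ctctctagtcatttctccacacaaagc
Fgf5_E037 reverse: atgtgaattcccagagttaagaagtcg
Fgf5_E038 forward: ttatccttccatccttgcttctctctc
Fgf5_E038 reverse: agacacacatgcacatacacatgaag
Fgf5_E039 forward: gtgggaataggtgggagggaatag
Fgf5_E039 reverse: cttctctgacaccatttcagctacaac
Fgf5_E040 forward: cagagttccacaaagtccagtaattg
Fgf5_E040 reverse: attgatcatggtgtctgttcacagtag

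The *Fgf5* promoter is shown because it is the fragments' own promoter. Its fragment covered chr5:98253809-98254258, and the 250 bases before the RefSeq gene start (chr5:98253934-98254183, GRCm38.p6, plus strand) lie within it. Capitals mark the motif matches found on either strand, which did not overlap.
Fgf5 promoter: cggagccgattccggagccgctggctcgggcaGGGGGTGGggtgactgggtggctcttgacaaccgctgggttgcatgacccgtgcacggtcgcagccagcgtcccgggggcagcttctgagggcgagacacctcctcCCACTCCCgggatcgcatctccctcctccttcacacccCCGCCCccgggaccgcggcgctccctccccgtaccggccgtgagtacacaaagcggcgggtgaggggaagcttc
GC content was 70.8%, with 24 CpG dinucleotides. The KLF letters GGGNGTGG occurred at 2 sites, and 15.9% of 32851 RefSeq promoter windows of this length held them. The SP1 letters GGGCGG occurred at 1 site, against 32.7% of windows. No match was found in this window to the POU octamer ATGCAAAT (1.6% of windows), SOX CATTGTT (3.29%), ESRRB AAGGTCA (4.08%), OTX2 GGATTA (6.25%), ZIC CAGCAGG (8.44%), TCF/LEF CTTTGAT (3.21%) or AP-1 TGANTCA (6.75%). Letters are a description and not binding sites.

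Activity is the cDNA to pDNA ratio of a combination, and the boost of a combination is its log2 activity minus the baseline, the log2 median activity of the control-control (CC) combinations of the same library. The baseline was lowest in *Lefty1* (-3.53 ± 0.084, SD over 3 replicates) and highest in *Ap1m1* (-0.77 ± 0.12). In *Fgf5* it rested on 23 of 60 CC combinations, since 37 were at 0 in a replicate and were left out, and varied most between replicates (-2.23 ± 0.34). The other libraries kept 219 to 477 CC combinations. Fragments were not measured equally. Of 160 possible EC combinations per fragment and promoter, E039 reached 117 to 134 outside *Sox2* and *Fgf5*, whereas E038 had 20 to 41 where it was tested. E036 had 5 EC combinations in all on the plus strand in position 1, E037 had 24 in position 1 on either strand, and E038 had 0 on the plus strand in position 1. In the *Fgf5* library, E036 had 2 EC combinations above 0 and E038 had 1, so neither was tested there, and E038 was not measured in EC combinations with *Sox2*.

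Alone, all 5 fragments raised activity with the promoters of *Klf2*, *Otx2*, *Lefty1*, *Nanog* and *Tbx3*, with E040 and E036 above E037 and E039. Of 37 tested pairs of fragment and promoter, 35 were above the controls and 2 were not called, E037 and E039 with their own *Fgf5* promoter (two-sided rank-sum permutation test, 1% FDR). Among all 446 enhancer-promoter pairs of the series, 88.6% were called higher, so that the count itself does not set the locus apart. The test compares combinations within a library. Since these share transfections, the 3 replicates are given beside each value.

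E040, the most distal element, had the widest range of boosts. Its median boost with *Sox2* was 2.41 ± 0.047 (SD, n = 3 replicates), a 5.3-fold increase over the baseline, and its replicates, 2.38, 2.32 and 2.41, lay above those with every other promoter. With *Lefty1* it was 1.78 ± 0.092 and with *Tbx3* 1.75 ± 0.27. Its own promoter gave 1.15 ± 0.19 over 28 combinations, from replicate values of 1.31, 1.21 and 0.94. With *Nanog*, *Otx2* and *Klf2* the boosts were 1.06 ± 0.14, 0.96 ± 0.13 and 0.82 ± 0.11. At *Ap1m1*, the promoter of a housekeeping gene for a clathrin adaptor subunit, it was 0.20 ± 0.059, a 1.15-fold increase that was called (FDR 0.00105, 100000 permutations). Ranked among the enhancers of each library, E040 ranged from 16 with *Sox2* to 48 with *Ap1m1*.

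E036, the element inside the gene, had a lower boost than E040 in 5 of 7 shared libraries and a higher one with *Nanog* and *Ap1m1*. Boosts were 1.76 ± 0.20 with *Sox2*, 1.64 ± 0.069 with *Tbx3* and 1.60 ± 0.20 with *Lefty1*, and the replicates of these promoters overlapped. They were 1.09 ± 0.086 with *Nanog*, 0.77 ± 0.074 with *Klf2*, 0.69 ± 0.22 with *Otx2* and 0.50 ± 0.13 with *Ap1m1*. With *Fgf5*, 1 of 3 measured combinations was at 0 in a replicate, and the other 2 had boosts of 1.07 and 1.34. E036 and E040 were not separated over the 7 shared libraries (E036 minus E040 -0.13 ± 0.12 SE, FDR 0.33, limma).

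E038 lay between these groups, with boosts from 0.63 ± 0.084 with *Klf2* and 0.63 ± 0.021 with *Ap1m1* to 1.17 ± 0.30 with *Tbx3*. Its rank was highest with *Ap1m1*, where it was 17, against 48 for E040. Its 1 combination with *Fgf5* had a boost of -2.02 ± 0.72 (SD over replicates), with all 3 replicates below the baseline, and allows no statement about the fragment.

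E037 and E039 were the weaker members. E037 ranged from 0.42 ± 0.048 with *Klf2* to 0.88 ± 0.21 with *Tbx3* among the called promoters. E039 ranged from 0.29 ± 0.066 with *Ap1m1* to 1.18 ± 0.11 with *Sox2*. With *Fgf5*, 7 of 20 combinations of E037, 6 of 26 of E039 and 37 of 60 CC combinations were at 0 in a replicate. These were left out, a larger share of them among the controls, so the values below compare only combinations above 0. The 13 remaining E037 combinations had a median of 0.099 ± 0.38 and lay on both sides of the baseline (FDR 0.71, permutation test). The 20 remaining E039 combinations had a median of -0.35 ± 0.61, with replicate values of 0.026, -0.69 and -1.18 (FDR 0.048, permutation test, not past 1%). Without replicate 1 this value was -0.82 and was called lower (FDR 0.0029), and E040 with *Fgf5* was no longer called (0.73, FDR 0.024).

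The differences between fragments were tested over libraries with limma, in which 76.6% of 1596 enhancer pairs of the series were called. Among the 10 pairs from the *Fgf5* locus 6 were called. E040 exceeded E037 by 0.72 ± 0.19 (SE, FDR 0.0086) and E039 by 0.69 ± 0.17 (FDR 0.0052), each in 7 of 8 libraries. The exception for both was *Ap1m1*, where E040 was the weakest of the 5. E036 exceeded E037 by 0.54 ± 0.14 and E039 by 0.44 ± 0.091, each in 7 of 7 libraries. E038 exceeded E037 by 0.31 ± 0.091 and E039 by 0.27 ± 0.091 in 6 of 6. E037 and E039 differed by 0.024 ± 0.11 (FDR 0.84), and E038 was not separated from E036 (FDR 0.29) or E040 (FDR 0.29).

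Averaged over the 5 promoters with a value for every fragment (*Klf2*, *Otx2*, *Lefty1*, *Nanog* and *Tbx3*), boosts were 1.27 for E040, 1.16 for E036, 0.95 for E038, 0.69 for E039 and 0.61 for E037. Among the 9 loci, the median enhancer of the *Fgf5* locus was 6th by its mean over the 8 promoters (0.83), with *Nanog* first (2.12) and *Pou5f1* last (0.65). The enhancer of another locus whose boosts were nearest was Klf2_E061 for both E036 (root mean square difference 0.13 over 7 promoters) and E040 (0.18 over 8). For E037 it was Lefty1_E095 (0.12 over 7), and for E039 Pou5f1_E080 (0.17 over 8). E038 had 6 promoters with a value, under the minimum of 7 for this search.

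In position 2, E036 was more active on the minus strand and E037 on the plus strand, with strands as the deposited table labels them. E040 also passed the test, with a smaller difference towards the minus strand, and E039 passed it without the *Fgf5* library. Across the series 48.1% of 54 enhancers tested in position 2 were called in either direction, and 3 of 5 *Fgf5* fragments were.

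For E036, the minus strand in position 2 had a boost of 1.99 with *Tbx3* against 1.04 for the plus strand. With *Lefty1* the values were 2.07 and 1.12, with *Nanog* 1.33 and 0.47, and with *Klf2* 1.16 and 0.33. In *Otx2* they were 0.95 and 0.25, in *Ap1m1* 0.86 and 0.22, and in *Sox2* 1.96 and 1.47. The minus strand was therefore the higher in 7 of 7 libraries, and the plus minus minus difference was -0.78 ± 0.064 (SE, FDR 7.9e-06, limma). All 7 were below 0 in each of the 3 replicates taken alone.

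E037 ran the other way. Its plus strand read 1.19 with *Tbx3*, 0.96 with *Lefty1* and 0.94 with *Sox2*, and its minus strand 0.30, 0.43 and 0.54. The difference was 0.56 ± 0.062 (FDR 3.9e-05) and above 0 in 7 of 7 libraries and in every library of each replicate. In the *Fgf5* library, 2 of 13 plus-strand and 5 of 7 minus-strand combinations of E037 in position 2 were at 0, and the difference was not taken there because 2 minus-strand combinations remained.

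E039 had a difference of -0.26 ± 0.15 over 8 libraries that was not called (FDR 0.18). In 7 libraries it lay between -0.66 and -0.14, and in *Fgf5*, with 5 combinations per strand, it was 0.94. The 3 replicates with *Fgf5* read 0.30, -1.23 and 0.46 on the plus strand. On the minus strand they read 0.034, -0.69 and -3.05, so the replicates did not share a direction and replicate 3 was far the most extreme. Without the *Fgf5* library it was -0.43 ± 0.065 and was called (FDR 0.00014). E040 fell by 0.22 ± 0.067 from the minus to the plus strand (FDR 0.018), and E038 had -0.14 ± 0.060 (FDR 0.085). Without the *Fgf5* library all 5 fragments were called, E038 at an FDR of 0.049.

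The control partners were not the same on both strands, so the difference was also taken between combinations with the same control on the same strand, an alternative chosen after seeing the data. The sizes were then -0.81 ± 0.089 for E036, 0.52 ± 0.050 for E037 and -0.45 ± 0.053 for E039, all called, among 61.1% of 54 enhancers called. E040 (-0.16 ± 0.079, FDR 0.11) and E038 (-0.047 ± 0.058) were not. The EE combinations offered other plasmids for the same comparison, and here 75.4% of 57 enhancers were called in position 2. With the same enhancer partner on the same strand, E036 had -0.49 ± 0.039 over 45 to 88 partners per library, E037 0.42 ± 0.043 and E039 -0.38 ± 0.043. Each kept its sign in 8 of 8 libraries, the *Fgf5* library included (-0.45, 0.38 and -0.17). For E040 the difference was 0.00027 ± 0.044 (FDR 0.995), and for E038 0.075 ± 0.056 (FDR 0.25).

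In position 1, EC combinations allowed the strand test for E039 (-0.094 ± 0.052) and E040 (-0.050 ± 0.048), and neither was called, against 32.5% of 40 enhancers in the series. With the same control partner they were -0.084 ± 0.035 (FDR 0.068) and -0.088 ± 0.067, where 52.5% were called. EE combinations with the same partner covered all 5 in position 1, where 61.4% of 57 enhancers were called. E036 was again higher on the minus strand (-0.40 ± 0.049, 7 of 7 libraries, 3 to 17 partners each). E038 was higher on the plus strand (0.35 ± 0.074, 4 of 5 libraries, 3 to 7 partners each). E039 (-0.11 ± 0.017) and E040 (-0.089 ± 0.035, FDR 0.046) were called with small differences. E037, which had the opposite sign to E036 in position 2, had 0.032 ± 0.030 (FDR 0.38).

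Position changed the boost of E040. It was lower in position 2 than in position 1 in 8 of 8 libraries, by -0.09 in *Ap1m1* to -0.43 in *Nanog*, with a mean of -0.31 ± 0.050 (FDR 0.00061, limma). Across the series 46.4% of 56 enhancers were called. With the same control and the same strand on both sides, where 37% of 54 were called, it was -0.27 ± 0.087 (FDR 0.028), negative in 7 libraries and 0.35 in *Fgf5*. E036 (-0.22 ± 0.079) and E038 (0.35 ± 0.10) also passed the test over all partners. With matched partners and strands the E036 difference turned to 0.21 ± 0.092 (FDR 0.10), and E038 was left with 1 library. In position 1, E036 had 5 plus-strand and 152 minus-strand combinations, and the minus strand was the higher one in position 2. E037 (0.16 ± 0.13) and E039 (-0.021 ± 0.087) were not called, and their matched values were -0.25 ± 0.14 and 0.12 ± 0.047.

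With the *Fgf5* promoter, the fragments of its own locus did not behave as a group. E037 was lower there than with the mean of the other 7 promoters by -0.75 ± 0.10, and E039 by -1.29 ± 0.14, while E040 was not (-0.11 ± 0.095, FDR 0.30; limma over 24 library-replicates). Of 47 enhancers fitted 76.6% were called and 59.6% were called lower, with a median of -0.59, so a lower value was common in the series. These contrasts rest on the baseline of 23 CC combinations and use only combinations above 0. Left out were 37 of 60 CC combinations, against 7 of 20 of E037 and 6 of 26 of E039. No rescaling below restores them. The SE pools the spread between replicates over all 8 libraries. With *Fgf5* alone the SD over replicates was 0.38 for E037, 0.61 for E039 and 0.19 for E040, so the SE understates the spread of the first 2 there. With the deposited baseline of the authors, 0.58 log2 units lower for *Fgf5*, the median enhancer moved to 0.15, E037 to -0.013 ± 0.081 (FDR 0.9) and E039 to -0.55 ± 0.083, and E040 turned to 0.63 ± 0.069 and was called higher. Centring each library on its median enhancer gave -0.018, -0.56 and 0.62. Each scaling moves all enhancers of a library by the same amount, so the order E040, E037, E039 could not change. E036 and E038 had too few combinations with *Fgf5* to be fitted.

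At *Ap1m1* E040 was lower than at the mean of the other promoters by -1.21 ± 0.095, against a median enhancer of -0.50, and it stayed lower when libraries were centred (-0.67 ± 0.069). In the series 74.5% of 47 enhancers were called and 70.2% were called lower. E037 (-0.011 ± 0.10) and E039 (-0.24 ± 0.14) were not called, and after centring both were above 0 (0.53 and 0.30). Set against the 6 promoters other than *Fgf5*, E036 could be fitted and was lower by -0.69 ± 0.092, E040 by -1.25 ± 0.086 and E039 by -0.43 ± 0.084.

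When 2 fragments of the locus were combined, the median combination was above the stronger single fragment with every promoter, though not every pair was. Of 266 such combinations 1 was at 0, with *Fgf5*, and 253 had the single-fragment values needed for an expected activity, the sum of both single activities minus the baseline. The median gain over the stronger single fragment was 0.94 log2 units with *Lefty1*, 0.80 with *Sox2* and *Tbx3*, 0.56 with *Fgf5*, 0.34 with *Nanog*, 0.30 with *Otx2*, 0.27 with *Klf2* and 0.14 with *Ap1m1*. The mean was 0.52 ± 0.30 (SD over 8 libraries), above 0 in 8 of 8 (exact sign-flip permutation test, p = 0.0078, the smallest that 8 libraries allow). The share of combinations above the stronger single fragment ran from 58.8% with *Ap1m1* and 78.8% with *Klf2* to 97.5% with *Lefty1*. With *Ap1m1*, the pairs of E039 with E038 (-0.19) and with E040 (-0.15) lay below it.

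Against the additive expectation, 4 libraries lay above 0 and the others close to it. The median log2 of observed over expected activity was 0.77 with *Fgf5* (12 combinations), 0.56 with *Lefty1*, 0.43 with *Tbx3* and 0.42 with *Sox2*. It was -0.016 with *Klf2*, -0.024 with *Nanog*, -0.026 with *Otx2* and -0.057 with *Ap1m1*. The 4 libraries with a positive value were those with the lowest baselines. The mean of 0.26 ± 0.33 did not pass the test (exact sign-flip p = 0.12). For *Fgf5*, the expected activity here and below uses the baseline of 23 CC combinations. A lower baseline raises the expectation, and pairs were not recalculated with the deposited one, 0.58 log2 units lower. The paper describes underestimated *Fgf5* expectations at low activity and calls sparse data the likely reason, which was not tested here. By replicate, *Ap1m1* read -0.046, -0.043 and -0.036 and *Lefty1* 0.49, 0.46 and 0.59, so the spread between libraries was larger than that between replicates for these. Replicates fell on both sides of 0 with *Klf2* (0.0055, 0.039 and -0.023), *Otx2* (-0.096, 0.035 and -0.020) and *Nanog* (0.0078, 0.025 and -0.064).

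Deviations beyond 1 propagated SD of the expectation were also counted. Of the 253 combinations, 24.5% were above it and 2.77% below, against 18% and 8.04% of all 66562 EE combinations with an expectation, and 20.2% and 3.72% of the 8718 that held 1 *Fgf5* fragment. With *Sox2* the share above was 53.8% (28.7% of all EE and 36.5% of those with 1 *Fgf5* fragment), with *Fgf5* 50% (38.9% and 45.4%), with *Lefty1* 47.5% (30.7% and 34.2%) and with *Tbx3* 41.7% (34.9% and 40.1%). It was lower in the other libraries, at 12.1% with *Klf2* (6.21% and 6.86%), 5.88% with *Ap1m1* (2.62% and 2.4%), 2.94% with *Otx2* (5.33% and 4.88%) and 2.63% with *Nanog* (7.01% and 8.05%). These shares describe combinations that share fragments and were not tested.

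A product of both single activities over the baseline moved the mean of the library medians of log2 observed over expected to -0.034. It was below 0 in 7 of 8 libraries and 1.05 with *Fgf5*, without which the mean was -0.19. The sum was nearer to the observed activity than the product for 30 of 38 combinations with *Nanog* and 11 of 12 with *Fgf5*, and the product was nearer for 28 of 36 with *Tbx3* and 27 of 40 with *Lefty1*.

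Pairs from within the locus were compared with pairs of 1 *Fgf5* fragment and an enhancer of another locus. The difference in deviation, same locus minus other locus, was 0.073 ± 0.090 over 8 libraries and above 0 in 6 (exact sign-flip p = 0.047), from -0.011 with *Otx2* to 0.23 with *Lefty1*. The call was lost in 6 alternatives, with exact p = 0.15 without replicate 3, 0.12 with arithmetic means, 0.094 without the *Fgf5* library, 0.078 without same-fragment pairs, 0.070 with the replicate block and 0.055 with at least 6 EC combinations.

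Single pairs were tested over libraries. Of 8 *Fgf5* locus pairs tested 2 were called, 1 above and 1 below the expectation, and of 1405 pairs in the series 28.4% were called, 19.4% above and 9.04% below. The pair E036 and E039 exceeded the sum by 0.24 ± 0.078 (SE, FDR 0.047), in 6 of 7 libraries. It was highest with *Lefty1* (0.49), *Tbx3* (0.41) and *Sox2* (0.37) and was -0.012 with *Nanog*. Without any 1 of the replicates it was no longer called (FDR 0.056 to 0.098).

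E036 with E040 had a mean boost of 2.25 over 8 libraries. With *Sox2* it reached 3.83 ± 0.15 (SD over replicates), 14.3-fold over the baseline, against an expected boost of 2.98, and its replicates read 3.86, 3.69 and 3.99. With *Tbx3* it reached 3.33 ± 0.16 against 2.52 and with *Lefty1* 3.29 ± 0.32 against 2.52. With *Klf2*, *Nanog* and *Otx2* the observed values of 1.31, 1.77 and 1.31 lay near the expected 1.42, 1.83 and 1.42. *Ap1m1* gave 0.56 against 0.72. The median deviations in these libraries were -0.028, -0.022, -0.085 and -0.13. In each of them the replicate deviations fell on both sides of 0, for example -0.24, 0.26 and 0.18 with *Klf2*, so no shortfall can be read there. Over 7 libraries the deviation was 0.30 ± 0.15 and was not called (FDR 0.15). With *Fgf5* the 5 combinations had a median boost of 2.63 ± 0.60, and no expectation could be formed.

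E037 with E040 had a mean deviation of 0.43 over 4 libraries and 7 combinations, too few libraries for the test, from -0.11 with *Nanog* to 0.93 with *Fgf5*. Without its 1 combination with *Fgf5* the mean was 0.26. Pairs were picked for naming by such means, which cover different libraries and so give no order of the pairs. E038 with E040 had a mean of 0.019 over 3 combinations in 3 libraries and a mean boost of 2.12. E037 with E039, a pair of the weaker members, had a mean boost of 1.17 and a deviation of 0.25 ± 0.090 (FDR 0.060), above 0 in 6 of 8 libraries. Its 3 combinations with *Fgf5* had a boost of 0.33 ± 1.0, so no direction of the boost can be read there. Their deviation from the sum was 0.48, with replicates of 0.65, 1.77 and 0.83, and rests on the same sparse baseline. E039 with E040 was the most often measured pair, with 64 combinations in all 8 libraries. With their own promoter, whose baseline rested on 23 CC combinations, it had a boost of 1.84 ± 0.28 against an expected 1.03. Its replicate deviations there were 0.43, 1.01 and 0.99. With *Ap1m1* it had 0.12 ± 0.14 against 0.46. The mean deviation was 0.16 ± 0.12 (FDR 0.30).

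A copy of E040 paired with another copy of itself gave less than the sum. This construct was measured in 6 libraries, in 1 combination each, with the minus strand in position 1 and the plus strand in position 2 as labelled, so that the copies stood on opposite strands. With *Sox2* the boost was 1.93 ± 0.16, against an expected 3.24 and single boosts of 2.51 in position 1 and 2.25 in position 2. With *Lefty1* it was 1.41 ± 0.28 against an expected 2.59, with *Tbx3* 1.63 ± 0.18 against 2.55, with *Nanog* 1.00 ± 0.29 against 1.83 and with *Klf2* 0.48 ± 0.13 against 1.40. With *Ap1m1*, where E040 alone had little effect, it was 0.35 ± 0.42 against 0.36. Boosts were below that of the single fragment in position 1 in 5 of 6 libraries and below that in position 2 in 3 of 6. The mean deviation was -0.86 ± 0.16 (SE, FDR 0.0079), with 16 of 18 replicate values below 0. The other same-fragment constructs of the series came from 3 enhancers with medians of 0.25, -0.27 and -0.39 over 4 to 6 combinations each. Whether the repeated sequence affects cloning, barcoding or transcription was not tested.

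The order of 2 fragments also changed activity. Of 5 *Fgf5* locus pairs tested 4 were called, against 53.9% of 1291 pairs in the series. E039 and E040 were more active with E040 in position 1, by 0.47 ± 0.049 log2 units (coded as E039 first minus E040 first, -0.47, FDR 0.00011, limma), in 8 of 8 libraries. The single values ran the same way, since E040 alone was also higher in position 1. With E036 in position 1, activity was higher by 0.32 ± 0.092 with E038 (4 of 5 libraries) and 0.31 ± 0.075 with E039 (7 of 8). With E038 and E039, E038 first minus E039 first was -0.30 ± 0.091 (4 of 5 libraries below 0). In its pairs with E036 and E039, E038 stood first in only 1 or 2 combinations per library. No minimum number of combinations was set for order. For E036 and E040 the difference was -0.10 ± 0.064 (FDR 0.21). Strand makeup was not matched between the orders, and its part in these differences was not tested.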

How the data were processed

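The labels give 73 samples, of which the cDNA of 8 promoter libraries in 3 replicates is used here. The authors extracted and clustered barcodes, normalised counts to the sample total, and deposited for each combination the ratio of cDNA to pDNA, averaged over at least 5 barcodes with at least 8 pDNA counts. The submitters' processing notes name Bowtie2 and mm10. Barcode numbers are not in the table, so depth is unknown and no counting error is given. The baseline ratio deposited by the authors was used as an alternative.

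Activities were averaged over replicates as geometric means. Combinations at 0 in a replicate were left out. A single-fragment value is the median over at least 3 EC combinations. SDs come from repeating the calculation in each replicate. Single fragments were tested with 100000 permutations (exact where a side had under 10 combinations) and Benjamini-Hochberg adjustment over all enhancers at a 1% FDR. Differences were tested with limma 3.58.1 (R 4.3.3), over at least 5 libraries, at a 5% FDR over all enhancers or pairs. Sign-flip tests were exact. Python 3.11.15, numpy 2.4.6 and pandas 2.3.3 were used, and RefSeq tables of GRCm38.p6 gave genes and the promoter sequence.

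Members, motifs and tests were chosen with earlier results of these data known. All 5 fragments, the called pairs and the 2 highest and 2 lowest pairs by mean deviation and by mean boost are named. The libraries behind these means differed between pairs. The fits were tested on simulated data with planted differences: 13 of 13 were recovered for strand in position 2, 176 of 200 for pairs and 87 of 200 for differences between fragments. Alternatives changed replicates, averaging, minimum number of combinations, baseline, controls, partners, libraries and the expectation. The motif search of the fragments was not run, since their sequences were not read here.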

Additional observations from a re-analysis of the deposited data

Results flagged for a closer look

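Of 39 sets of library values examined, 4 held a library apart from the rest by Dixon's criterion, which chance alone gives for about 1 set in 20. For E039, the *Fgf5* library stood apart in the position 2 minus position 1 difference (-0.67) and in the plus minus minus strand difference in position 2 (0.94). The strand value rested on 5 combinations above 0 on each strand, and the part of this small number was not tested. Its replicates did not share a sign. For E037, *Tbx3* had the largest strand difference in position 2 (0.90), in the direction of the other 6 libraries. For E040 paired with itself, *Ap1m1* was apart with -0.0024, the other 5 libraries lying between -1.31 and -0.83.

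The effect of a fragment differed between promoters by the test of the difference itself for E037 (-0.75) and E039 (-1.29) with *Fgf5*, and for E040 (-1.21) with *Ap1m1*. The E037 difference was not called with the deposited baseline (-0.013), and the other 2 were below 0 under every scaling tried. The *Fgf5* values use only combinations above 0, and a larger share of the controls than of the E037 or E039 combinations was left out there.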

How the results depend on the processing

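The counts of called single fragments (33 to 35 of 37 or 38 tested) and of called differences between fragments (6 of 10) held under all alternatives tried. With *Fgf5*, the median boost of E037 changed sign without replicate 1 or 3 (-0.23 to 0.17 over the left-out replicates), with arithmetic means (-0.13), with shuffled controls (-0.28) and in replicates 2 and 3 alone (-0.037 and -0.59), and that of E039 with arithmetic means (0.13) and in replicate 1 alone (0.026). These sign changes came with no call. E039 was called lower without replicate 1, where its sign did not change.

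For position, 1 to 2 members were called without a replicate and 1 with matched partners (E036 0.21, E037 -0.25, E039 0.12, all reversed), against 3. E039 was 0.028 with arithmetic means, 0.072 without the *Fgf5* library and -0.078 to 0.083 without a replicate. For strand in position 1, EE combinations called 4 members instead of 0, and E040 ranged from -0.13 to 0.083 without a replicate. For strand in position 2, 5 were called without the *Fgf5* library, 2 to 4 without a replicate, and E038 and E040 changed sign in EE combinations (0.075 and 0.00027).

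E040 with *Fgf5* was 0.63 with the deposited baseline and 0.62 after centring. For *Ap1m1*, 3 members were called against 6 promoters, 2 with the deposited baseline and 3 after centring, where E037 was 0.53 and E039 0.30. E037 ranged from -0.050 to 0.0095 without a replicate.

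For pairs, 4 were called with arithmetic means, 1 without same-fragment pairs and 1 to 2 without a replicate. Without the *Fgf5* library E036 with E037 was also called (0.22, FDR 0.034, limma). In the main fit this pair had the same value, above 0 in 7 of 7 libraries, and was not called (FDR 0.058). The multiplicative expectation reversed E036 with E037 (-0.11), E038 (-0.23), E039 (-0.13) and E040 (-0.32, called), E039 with E038 (-0.18) and E040 (-0.12), and the mean over the locus (-0.034). That mean was 0.25 to 0.34 without a replicate, called without replicate 1, and 0.25 and called with singles by strand. The difference from pairs with other loci was 0.051 to 0.12 without a replicate and was not called with arithmetic means (0.064), at least 6 EC combinations (0.068), without the *Fgf5* library (0.071) or without same-fragment pairs (0.073). For order, 2 to 4 were called without a replicate. The causes were not tested.

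Replicate numbers are shared by libraries. Deviations of same-numbered replicates correlated by 0.45 on average, with the lowest at -0.21, and those of differently numbered replicates by -0.23 on average. Deviations from a mean over 3 replicates sum to 0, so the second average is not independent of the first. The main fits did not take same-numbered replicates as pairs, and a replicate block was fitted as an alternative. With a replicate block 2 and 1 members were called for *Fgf5* and *Ap1m1* among 36 and 36 of 47 enhancers, the locus mean was 0.29, the difference from other loci 0.089 and not called, and the gain over the stronger fragment 0.54.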
